A study of Mus musculus with 8 samples.

Results

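Chemokines are small secreted proteins that bind receptors coupled to G proteins and direct the movement of leukocytes along gradients. The genes described here are those of the CC, CXC, CX3C and XC ligands, of their receptors, and of the atypical receptors that bind chemokines without coupling to G proteins. They were taken from the gene count table by symbol, and 66 of its 54532 entries matched. These entries hold 61 distinct symbols, of which 38 are ligands and 23 are receptors. The libraries come from primary lung fibroblasts (pFBs) of female mice on a C57/black background, grown out from minced lung in medium with serum and otherwise untreated. WT1 to WT4 are from wild type mice, and HOMO1 to HOMO4 are from homozygous mice that carry human IGFBP5 (hIGFBP5) as a knock-in expressed ubiquitously from the Ef1a1 promoter, so that any cell type left in the cultures can carry it. IGFBP5 is a secreted binding protein of the insulin-like growth factors. The age of the mice, and whether each library is from a separate mouse, are not given in the sources used here, so p-values measure the spread between these libraries.

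Inflammatory chemokines are made by many cells, fibroblasts and macrophages among them, after stimulation, and recruit monocytes, neutrophils and lymphocytes. Constitutive chemokines such as Cxcl12 are made by stromal cells at rest and hold leukocytes and stem cells in place. In fibrotic lung, fibroblasts and macrophages are both known sources of monocyte attractants such as Ccl2 and Ccl7, and receptors are for the most part found on leukocytes.

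Between 17236521 and 31987790 reads were counted per library, at which depth 3 counts stood for 0.0908 to 0.172 CPM (counts scaled to library size). Some libraries were near-identical. The biological coefficient of variation was 7.64% between WT1 and WT2, 4.71% between HOMO1 and HOMO2 and 5.07% between HOMO3 and HOMO4. For all remaining pairs within a genotype it was 30.0 to 55.7%, so that the 4 WT libraries behaved as 3 units and the 4 HOMO libraries as 2. The 8 fibroblast markers were all detected, with sums of 9925 to 14029 CPM in WT and 12459 to 22319 CPM in HOMO. The 10 macrophage markers summed to 138, 168, 2229 and 1299 CPM in WT1 to WT4 and to 59.4, 63.3, 178 and 203 CPM in HOMO1 to HOMO4, and none of the 10 was a DEG. Ptprc, Cd68, Adgre1, Csf1r, Lyz2, Mrc1, Cd14, Itgam, C1qa and C1qb make up this list. Of the dendritic cell markers, Itgax and Zbtb46 exceeded 1 CPM, Clec9a had 0 counts, and no T cell, B cell or neutrophil marker reached 1 CPM in any library.

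Differential expression of HOMO vs. WT was tested over all 14150 genes that passed a filter on low counts, by edgeR's quasi-likelihood method with p-values adjusted after Benjamini and Hochberg. Genes were called DEGs where the adjusted p was under 0.05 and the log2 fold change was beyond 0.6 in either direction, and these made up 12.1% of the genes tested (5.94% upregulated and 6.18% downregulated). Of the 43 ligand entries, 14 had no count in any library, 12 were counted but fell below the filter, and 17 were tested. One ligand, Ccl7, was downregulated in the HOMO pFBs, which is 1 of 17, and no ligand was upregulated. Of the 23 receptor entries, 2 had no count, 15 fell below the filter and 6 were tested. The receptors Xcr1 and Ackr4 were upregulated, which is 2 of 6, and no receptor was downregulated. Both passed the filter through their HOMO levels, and their counts were low. When the near-identical libraries were summed to 3 WT and 2 HOMO units, edgeR called 0 ligands, 0 receptors and 0 genes of the whole table, with unadjusted p under 0.05 for 5 ligands, 4 receptors and 2057 genes. With the near-identical libraries kept apart and the pairs as a random block, limma-voom called 1 ligand (Cxcl5, upregulated), 0 receptors and 1.52% of all genes. The unadjusted p was under 0.05 for 7 tested ligands and 3 tested receptors, against 32.3% of all genes. The median log2 fold change was −0.87 over the tested ligands and 0.36 over the tested receptors, beside −0.04 over all genes, with median standard errors (SE) of 1.02 and 0.54.

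**Figure D1:**
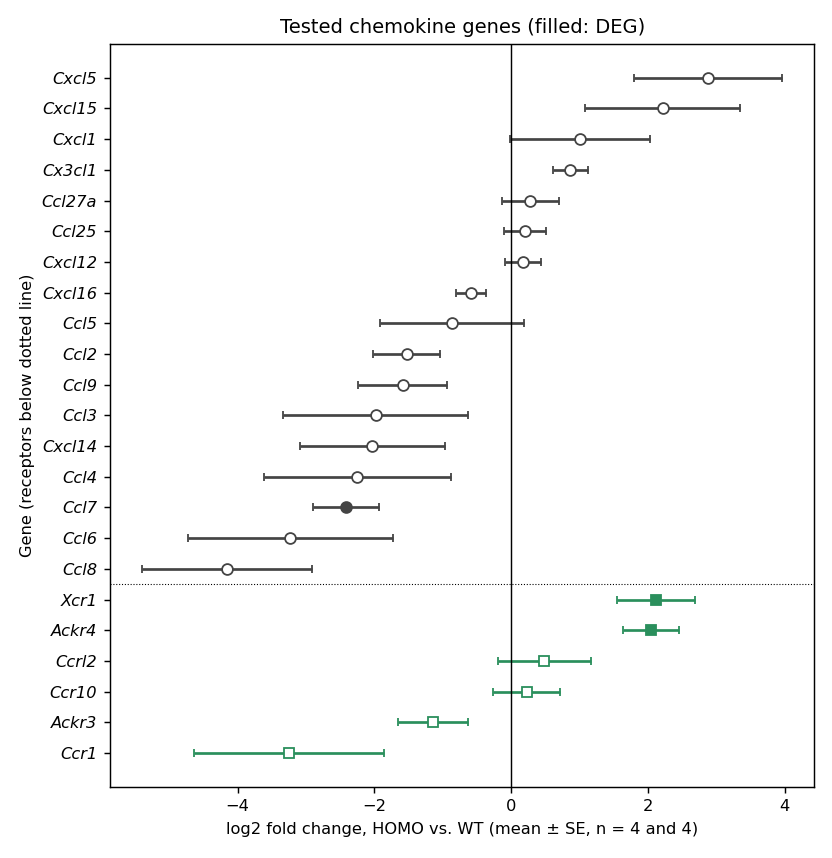
The log2 fold change of HOMO vs. WT is plotted with its SE for the 23 tested chemokine genes, ligands as circles above the dotted line and receptors as squares below it, with DEGs filled. Ccl7 at −2.41, Xcr1 at 2.12 and Ackr4 at 2.04 are the filled points, and the widest bars belong to Ccl6, Ccr1, Ccl4 and Ccl3.

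The genotypes did not overlap for 8 of the 23 tested members, against 27.3% of all genes tested. Of these, 5 were higher and 3 lower in HOMO, beside 14.0 and 13.4% of all genes. The 6 ligands among them were Ccl7, Ccl8 and Cxcl16, lower in HOMO, and Cx3cl1, Cxcl5 and Cxcl15, higher in HOMO. The receptors were Xcr1 and Ackr4. Among these members, Ccl8 passed the filter through its WT levels, and Cxcl5, Cxcl15, Xcr1 and Ackr4 through their HOMO levels. In whole cultures such as these, fewer cells of a type and less RNA per cell cannot be told apart.

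Ligand levels per kilobase of exon were led by Cxcl12, with 488 CPM per kb in WT and 551 in HOMO. Ccl7 followed in WT with 136 CPM per kb, then Ccl6 with 77.6, Ccl2 with 67.8 and Ccl8 with 15.98. The places of Ccl6 and Ccl8 came from WT3, without which the WT levels were 99.6 CPM per kb for Ccl7, 52.3 for Ccl2, 18.7 for Ccl6 and 6.10 for Ccl8. Cx3cl1, which was lowest in WT3 among the WT libraries, stood at 10.3 CPM per kb over all WT libraries. In HOMO, Ccl7 stood at 25.6 CPM per kb, Ccl2 at 23.5, Cx3cl1 at 18.8 and Cxcl5 at 17.9. Of all reads counted for ligands, Cxcl12 took 74.3 to 96.0% in the WT libraries and 94.6 to 95.9% in the HOMO libraries. The lowest of these shares was that of WT3, where the other ligands together reached 949 CPM against 251 to 323 CPM in the other WT libraries and 192 to 259 CPM in HOMO.

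Ccl2, Ccl7, Ccl8 and Ccl12 attract monocytes, mostly through Ccr2, and lie side by side with Ccl11 on chromosome 11. Ccl7 (ENSMUSG00000035373, GRCm38 chr11:82045712-82047525, plus strand) was the ligand called as a DEG. Its levels were 109, 96.6, 197 and 34.1 CPM in WT1 to WT4 and 14.0, 17.7, 25.2 and 25.1 CPM in HOMO1 to HOMO4. All HOMO libraries lay below the lowest WT library, WT4, and WT3 stood highest. The mean was 109 ± 67.3 CPM in WT and 20.5 ± 5.59 CPM in HOMO (SD, n = 4 each), and the log2 fold change was −2.41 (SE 0.48, edgeR adjusted p = 0.0162). Leaving out WT1 to WT4 one at a time left 9.75, 8.29, 15.0 and 12.8% of all genes called, and leaving out HOMO1 to HOMO4 left 3.52, 3.56, 7.11 and 6.72%. For Ccl7, without HOMO1 the adjusted p was 0.0626, without HOMO2 it was 0.0645, and with near-identical libraries summed it was 0.328 at a log2 fold change of −2.41. Without WT3 and WT4, the libraries with the highest macrophage sums, Ccl7 was called (log2 fold change −2.33, edgeR adjusted p = 0.00153), beside 20.9% of all genes. The WT libraries left in that fit, WT1 and WT2, are near-identical and behaved as a single unit. Its p-value therefore does not measure the spread between WT units. Over the 19 alternatives tried, adjusted p for Ccl7 ranged from 5.42e-06 to 0.328, and it was called in 14. The part of macrophages in the Ccl7 levels was not tested.

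Ccl2 (ENSMUSG00000035385, chr11:82035571-82037453, plus strand), the main monocyte attractant of stromal cells, was counted at 89.7, 71.1, 130 and 17.6 CPM in WT1 to WT4. In HOMO1 to HOMO4 it stood at 22.7, 24.5, 28.9 and 31.0 CPM. WT1, WT2 and WT3 were above every HOMO library, whereas WT4 was below all of them, so the genotypes overlapped. Its log2 fold change of −1.53 (SE 0.49) did not pass, with an edgeR adjusted p of 0.0714. Without WT4 the log2 fold change was −1.86 and the edgeR adjusted p 0.00512, within a range over all alternatives of 0.000658 to 0.522. With WT4 kept, DESeq2 called Ccl2 (adjusted p = 0.0112).

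Ccl8 was measured at 1.18, 2.06, 23.3 and 6.12 CPM in WT1 to WT4 and at 0, 0.151, 0.811 and 0.902 CPM in HOMO1 to HOMO4. The genotypes did not overlap, and WT3 and WT4, the libraries with the highest macrophage marker sums, were those with the most Ccl8. Its log2 fold change was −4.16 (SE 1.24, edgeR adjusted p = 0.0589), and −1.85 (adjusted p = 0.207) without WT3 and WT4, with adjusted p of 0.00129 to 0.511 over all alternatives. DESeq2 called Ccl8. Ccl12 fell below the filter, with 0.338, 0.0429, 7.17 and 0.968 CPM in WT1 to WT4 and 0.0446, 0.0605, 0.152 and 0.150 CPM in HOMO1 to HOMO4. Most of its reads were in WT3, and the genotypes overlapped (two-sided exact permutation p = 0.143). WT2 had 1 count and HOMO1 to HOMO4 had 1, 2, 3 and 3, so the order of these libraries rests on few reads. DESeq2 on entries with at least 1 count called Ccl12. Ccl11, which attracts eosinophils, had 21 counts in WT3 and 3 or fewer in each other library. The part of macrophages in the levels of Ccl8 and Ccl12 was not tested.

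**Figure D2:**
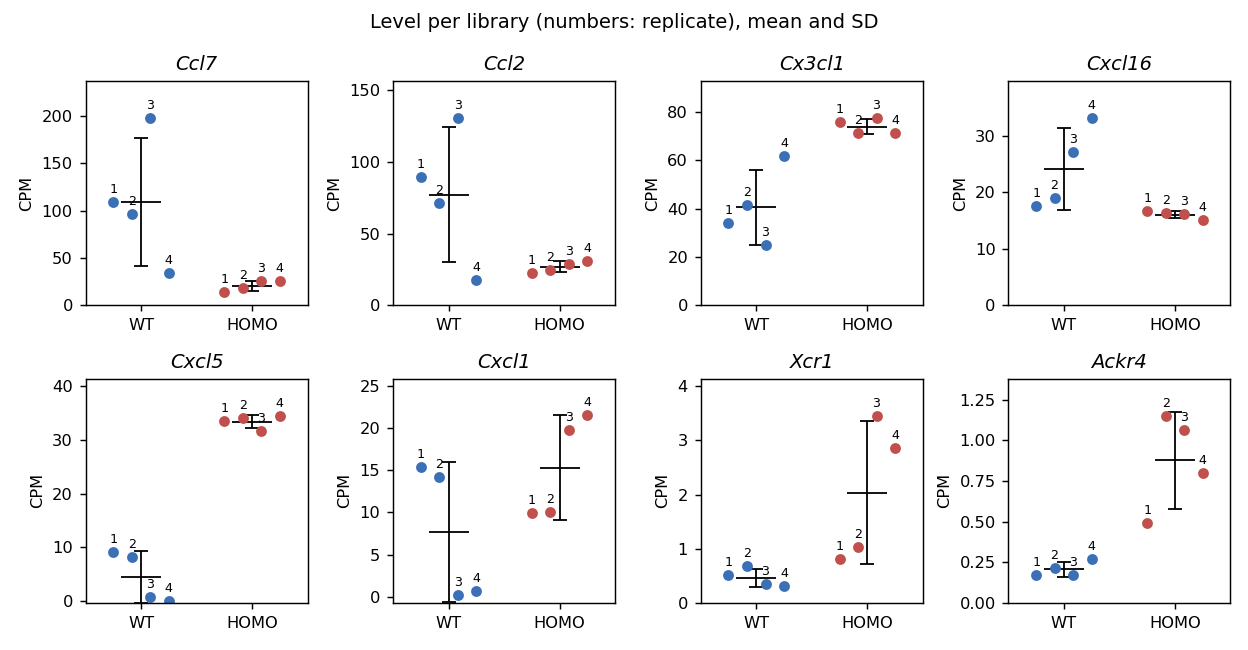
CPM per library is plotted for 8 chemokine genes in WT (blue) and HOMO (red), with the replicate number above each point and bars for mean and SD (n = 4). WT4 is the lowest WT library for Ccl7 and Ccl2, the HOMO points of Cx3cl1, Cxcl16 and Cxcl5 lie close together, and Xcr1 is highest in HOMO3 and HOMO4.

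Ccl3, Ccl4, Ccl5, Ccl6 and Ccl9 attract monocytes and other leukocytes, are typical products of myeloid cells, and form a further group of neighbours on chromosome 11. Their summed level was 34.1, 30.5, 510 and 70.03 CPM in WT1 to WT4 and 2.72, 2.81, 37.5 and 43.4 CPM in HOMO1 to HOMO4. None of the 5 was a DEG. WT3 was the highest library and HOMO1 and HOMO2 the lowest ones, which was also the order of the macrophage sums at both ends. HOMO3 and HOMO4 lay above WT1 and WT2 in both measures. Ccl6, the most abundant of them in reads, had 22.7, 20.8, 456 and 57.3 CPM in WT1 to WT4 and 0.624, 0.726, 26.0 and 32.4 CPM in HOMO1 to HOMO4. A log2 fold change of −3.23 had an SE of 1.49 (edgeR adjusted p = 0.172), and it was −1.18 without WT3 and −0.56 without WT3 and WT4. Without WT3 and WT4 the macrophage marker sums were 138 and 168 CPM in WT and 59.4 to 203 CPM in HOMO, and Ccl6 was not called there either. Their part in these levels was not tested.

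Ccl9 had 9.11, 6.82, 28.4 and 4.76 CPM in WT1 to WT4 and 2.10, 1.91, 6.44 and 5.92 CPM in HOMO1 to HOMO4. WT4 lay below HOMO3 and HOMO4, and the log2 fold change was −1.59 (SE 0.65, edgeR adjusted p = 0.133). DESeq2 called Ccl9 (adjusted p = 0.0483), and its adjusted p ranged up to 0.463 over all alternatives. Ccl3 had 0.506, 1.03, 13.8 and 3.72 CPM in WT1 to WT4 and 0, 0.121, 2.18 and 2.56 CPM in HOMO1 to HOMO4. HOMO3 and HOMO4 exceeded WT1 and WT2, and the edgeR adjusted p was 0.344. Ccl4 had 1.01, 0.772, 9.47 and 3.83 CPM in WT1 to WT4 and 0, 0, 1.62 and 1.604 CPM in HOMO1 to HOMO4, an order of libraries like that of Ccl3 (edgeR adjusted p = 0.288). Ccl5 had 0.788, 1.12, 1.89 and 0.387 CPM in WT1 to WT4 and 0, 0.0605, 1.32 and 0.952 CPM in HOMO1 to HOMO4 (edgeR adjusted p = 0.603). Ccl3, Ccl4 and Ccl5 were thus at or near 0 in HOMO1 and HOMO2.

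**Figure D3:**
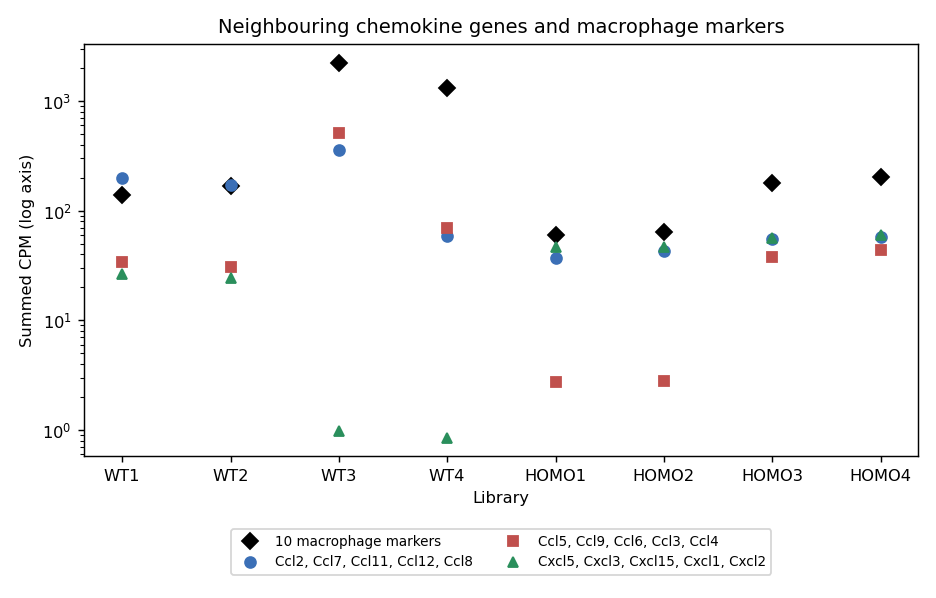
Summed CPM on a log axis is plotted for each library for the Ccl2 to Ccl8 neighbours (circles), the Ccl5 to Ccl4 neighbours (squares), the Cxcl5 to Cxcl2 neighbours (triangles) and the 10 macrophage markers (diamonds). Macrophage markers are highest in WT3 and WT4, the Ccl5 to Ccl4 sum is highest in WT3 and lowest in HOMO1 and HOMO2, and the Cxcl sum falls below 1 CPM in WT3 and WT4.

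Cxcl1, Cxcl2, Cxcl3, Cxcl5 and Cxcl15 recruit neutrophils and lie together on chromosome 5. Their sum ran the other way from that of the CC groups, with 26.7, 24.2, 0.976 and 0.852 CPM in WT1 to WT4 and 46.5, 46.5, 56.7 and 60.6 CPM in HOMO1 to HOMO4. Every HOMO library was above every WT library, and WT3 and WT4 were close to 0. Of these genes Cxcl1, Cxcl5 and Cxcl15 were tested, and none was a DEG. Cxcl5 (ENSMUSG00000029371, chr5:90759360-90761624, plus strand) had 9.17, 8.28, 0.746 and 0 CPM in WT1 to WT4 and 33.5, 34.1, 31.7 and 34.5 CPM in HOMO1 to HOMO4. The HOMO libraries differed by little among themselves, while WT fell into a pair of higher and a pair of lower libraries. The log2 fold change was 2.88 with an SE of 1.09 (edgeR adjusted p = 0.109). Without WT3 and WT4 it was 1.94 with an edgeR adjusted p of 0.000203, the lowest of a range that reached 0.419. In that fit 20.9% of all genes were called. The WT libraries left there, WT1 and WT2, are near-identical, so this p-value does not measure the spread between WT units.

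Cxcl1 had 15.4, 14.2, 0.230 and 0.774 CPM in WT1 to WT4 and 9.90, 10.1, 19.8 and 21.5 CPM in HOMO1 to HOMO4. Within WT, WT1 and WT2 lay above WT3 and WT4, and within HOMO, HOMO3 and HOMO4 lay above HOMO1 and HOMO2. WT1 and WT2 also lay above HOMO1 and HOMO2 (log2 fold change 1.00, SE 1.02, edgeR adjusted p = 0.536). Cxcl15, known from lung epithelium, had 1.86, 1.42, 0 and 0 CPM in WT1 to WT4 and 3.03, 2.39, 5.27 and 4.51 CPM in HOMO1 to HOMO4. All HOMO libraries were above the WT libraries (log2 fold change 2.21, SE 1.13, edgeR adjusted p = 0.213). Epithelial markers summed to 0.225 to 1.55 CPM in WT and 1.605 to 14.3 CPM in HOMO, and their part in the Cxcl15 levels was not tested. Of the 2 markers tested, Cdh1 was called upregulated and passed the filter through HOMO, and Foxj1 had a log2 fold change of −0.57. Cxcl2 and Cxcl3 had at most 5 counts in any library.

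RefSeq promoter windows of GRCm38.p6, from 250 bases before to 50 bases after the start, were at hand for 46 of the 61 symbols, Ccl7, Ccl2 and Cxcl5 not among them. Many inflammatory chemokine genes are known targets of NF-κB, and one form of its κB motif, which reads 3 G, any 2 bases, 3 T and 2 C, was searched on both strands. It was present in 1.63% of all 32851 windows and in those of Ccl9, Ccl20, Ccr3, Cxcl1, Cxcl2 and Cxcl3. The windows of Ccl9, Ccl20 and Cxcl1 are shown because these 3 genes had the most counts among the members that carry the motif. Capitals mark the match. A match on the minus strand of the window reads as the reverse complement, which holds for all shown but the second match of Cxcl1.
Ccl9 promoter, chr11:83578587-83578886, minus strand: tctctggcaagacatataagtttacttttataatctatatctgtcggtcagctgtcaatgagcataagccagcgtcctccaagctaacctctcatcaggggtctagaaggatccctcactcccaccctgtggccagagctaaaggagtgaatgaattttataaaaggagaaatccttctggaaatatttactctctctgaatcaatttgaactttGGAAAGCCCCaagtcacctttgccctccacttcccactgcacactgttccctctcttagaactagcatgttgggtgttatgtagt
Ccl20 promoter, chr1:83116516-83116815, plus strand: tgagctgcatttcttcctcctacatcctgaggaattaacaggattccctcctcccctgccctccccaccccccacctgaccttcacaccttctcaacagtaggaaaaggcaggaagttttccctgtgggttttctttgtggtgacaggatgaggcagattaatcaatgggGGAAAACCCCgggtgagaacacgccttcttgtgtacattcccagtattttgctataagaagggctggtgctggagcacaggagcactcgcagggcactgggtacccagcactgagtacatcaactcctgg
Cxcl1 promoter, chr5:90890995-90891294, plus strand: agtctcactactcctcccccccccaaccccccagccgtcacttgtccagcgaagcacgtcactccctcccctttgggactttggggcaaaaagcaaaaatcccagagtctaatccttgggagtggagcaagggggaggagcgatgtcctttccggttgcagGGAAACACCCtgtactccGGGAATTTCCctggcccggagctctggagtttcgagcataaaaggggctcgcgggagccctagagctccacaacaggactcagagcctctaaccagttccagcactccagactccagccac
The match begins 35 bases before the start in Ccl9 and 80 bases before it in Ccl20. In Cxcl1 a match on each strand begins 89 and 71 bases before the start. The levels of these 3 genes did not move together: Ccl9 and Ccl20 had lower means in HOMO and Cxcl1 a higher one. Ccl9 and Cxcl1 were not DEGs, and Ccl20 fell below the filter and was not tested by that rule.

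Ccl20, which attracts Ccr6-bearing lymphocytes and dendritic cells, fell below the filter. Its counts were 16, 18, 6 and 7 in WT1 to WT4 and 0, 0, 1 and 1 in HOMO1 to HOMO4. The genotypes did not overlap, with a ratio of WT to HOMO of 26.5 (95% counting interval 6.94 to 225) and a two-sided exact permutation p of 0.0286 before adjustment. Ccl28, a mucosal ligand of Ccr10 and Ccr3, had counts of 6, 15, 34 and 59 in WT1 to WT4 and of 0, 0, 1 and 4 in HOMO1 to HOMO4. Again no HOMO library reached a WT library (two-sided exact permutation p = 0.0286). This is the smallest p that 70 assignments of the libraries allow, and 4 of the 16 members compared in this way reached it. Among all genes outside the test with more than 3 counts in a library, the genotypes did not overlap for 7.59%. Taken as 3 WT and 2 HOMO units, the libraries allow 10 assignments and no p below 0.1, which holds for Ccl20, Ccl28, Cxcr6 and Ackr1.

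Among the constitutive ligands, Cxcl12 (ENSMUSG00000061353, chr6:117168535-117181367, plus strand), the ligand of Cxcr4 and Ackr3, had 3267, 3890, 2751 and 6064 CPM in WT1 to WT4. In HOMO1 to HOMO4 it stood at 4511, 4459, 4486 and 4567 CPM. The HOMO values lay within the range of the WT values, and the log2 fold change was 0.17 (SE 0.26, edgeR adjusted p = 0.677). Cxcl14, an attractant of monocytes and dendritic cells, had 0.675, 0.643, 11.6 and 14.4 CPM in WT1 to WT4 and 0.713, 0.635, 2.38 and 3.01 CPM in HOMO1 to HOMO4. WT1 and WT2 were level with HOMO1 and HOMO2, and the difference of means lay in WT3 and WT4 (log2 fold change −2.03, SE 1.06, edgeR adjusted p = 0.220). Without WT3 and WT4 the sign turned, to a log2 fold change of 1.33.

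Cx3cl1 and Cxcl16 are made as membrane-bound proteins and shed by Adam10 and Adam17. Cx3cl1 (ENSMUSG00000031778, chr8:94772009-94782427, plus strand) had 34.0, 41.5, 25.0 and 61.6 CPM in WT1 to WT4 and 76.0, 71.3, 77.3 and 71.2 CPM in HOMO1 to HOMO4. Every HOMO library was above every WT library. The log2 fold change was 0.87 (SE 0.25), and the edgeR adjusted p of 0.0529 lay just past the threshold. It was 0.0109 without WT4, 0.0465 without WT3 and 0.0938 to 0.134 without any one of the other libraries, and 0.000156 to 0.419 over all alternatives. DESeq2 called Cx3cl1 (adjusted p = 0.0143). The gene lies on chromosome 8, where the median log2 fold change of 790 tested genes was 0.37, and the part of this shift in the Cx3cl1 value was not tested. Ccl25, a ligand of Ccr9 on the same chromosome, had means of 3.99 ± 1.29 CPM in WT and 4.59 ± 0.849 CPM in HOMO (SD, n = 4 each) and overlapped between genotypes (log2 fold change 0.20, SE 0.31, edgeR adjusted p = 0.693).

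Cxcl16 (ENSMUSG00000018920, chr11:70453983-70459984, minus strand) had 17.6, 19.0, 27.1 and 33.1 CPM in WT1 to WT4 and 16.6, 16.3, 16.2 and 15.1 CPM in HOMO1 to HOMO4. All HOMO libraries lay below the WT libraries, WT1 and WT2 by a small margin (log2 fold change −0.59, SE 0.22, edgeR adjusted p = 0.102). Of its exon bases, 18.3% are shared with Zmynd15 on the opposite strand, and whether counting used strand is not given in the sources used here. Ccl27a had means of 4.35 ± 2.53 CPM in WT and 5.28 ± 1.62 CPM in HOMO (SD, n = 4 each) and also overlapped (edgeR adjusted p = 0.680). Ccl27a, Ccl21a, Ccl21b and Ccl19 stand on several entries for near-identical copies, among which reads can be divided, so their values are uncertain.

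Of the ligands with no count in any library, Xcl1, Ccl1, Ccl19, Ccl21a, Ccl21b, Ccl22, Ccl26, Ccl27b and Cxcl11 make up the 9 symbols. A count of 0 allows up to 0.0908 to 0.172 CPM in a library, which covers counting error only. Cxcl10, a ligand of Cxcr3 induced by interferon, had 47 counts in WT3 and 1 to 13 in each other library (two-sided exact permutation p = 0.8286). The remaining untested ligands Cxcl13, Ccl17, Ccl24, Cxcl9 and Cxcl17 had at most 9 counts in any library.

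**Figure D4:**
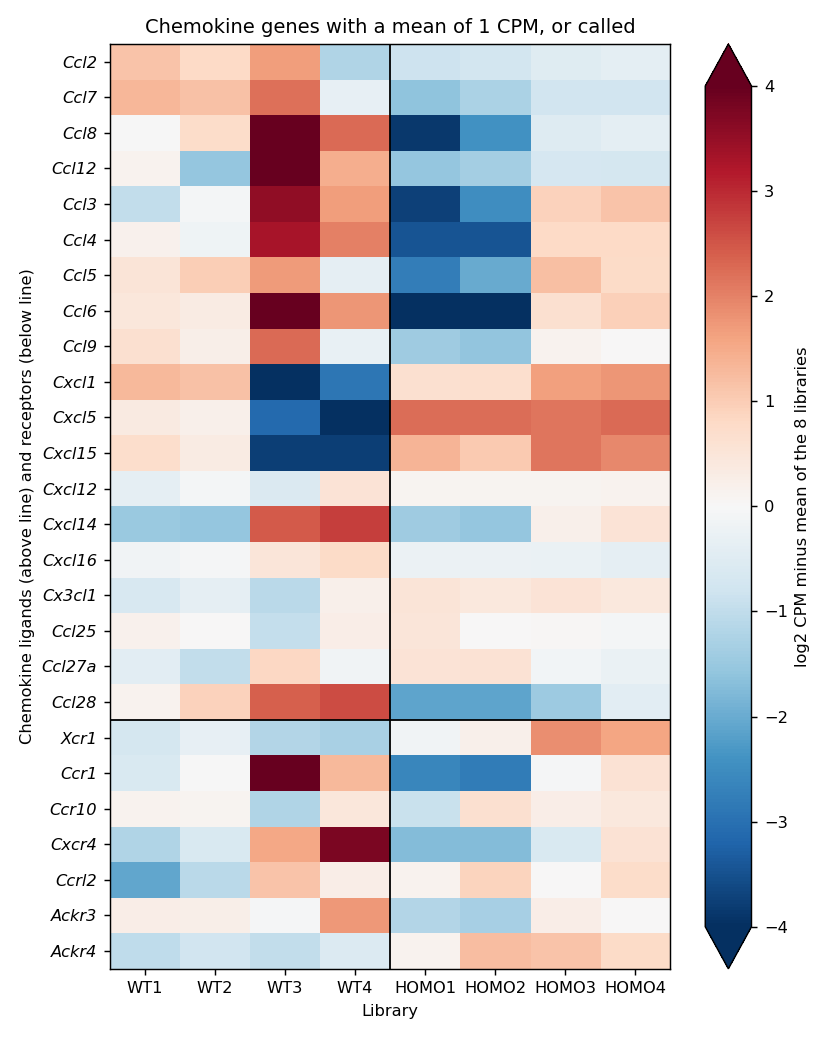
Colours give log2 CPM in each library minus the mean of the 8 libraries, for the chemokine genes with a mean of at least 1 CPM in a genotype or called as DEGs, with ligands above the line and receptors below it. Ccl8, Ccl12, Ccl3, Ccl4, Ccl6 and Ccr1 are darkest red in WT3, and Cxcl1, Cxcl5 and Cxcl15 are darkest blue in WT3 and WT4.

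The receptors were counted at far lower levels than the ligands, with 10.3 to 65.2 CPM in all per library. Xcr1 (ENSMUSG00000060509, chr9:123852315-123862029, minus strand), the receptor of Xcl1 and known from cross-presenting dendritic cells, was upregulated in HOMO. Its levels were 0.506, 0.686, 0.344 and 0.310 CPM in WT1 to WT4 and 0.802, 1.03, 3.45 and 2.86 CPM in HOMO1 to HOMO4. HOMO3 and HOMO4 stood well above the rest, while HOMO1 and HOMO2 lay just over the WT libraries. The mean was 0.462 ± 0.173 CPM in WT and 2.03 ± 1.32 CPM in HOMO (SD, n = 4 each), and the log2 fold change was 2.12 (SE 0.56, edgeR adjusted p = 0.0420). The call was lost without any one of the 8 libraries, with edgeR adjusted p of 0.0535 to 0.0994, and with near-identical libraries summed (adjusted p = 0.344), and adjusted p ranged from 0.00482 to 0.354 over all alternatives. Of the 4 dendritic cell markers listed, Clec9a had 0 counts and Flt3 had 1 count in WT4 and none elsewhere. The other markers were detected, Zbtb46 with means of 4.46 CPM in WT and 4.38 CPM in HOMO and Itgax with 9.39 and 1.46 CPM. The ligand Xcl1 had no count. The part of dendritic cells in the Xcr1 levels was not tested.

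Ackr4 (ENSMUSG00000079355, chr9:104084157-104126933, minus strand), an atypical receptor that takes up Ccl19, Ccl21 and Ccl25, was also upregulated in HOMO. It had counts of 3, 5, 3 and 7 in WT1 to WT4 and of 11, 38, 21 and 16 in HOMO1 to HOMO4. This gave 0.169, 0.214, 0.172 and 0.271 CPM in the WT libraries and 0.490, 1.15, 1.06 and 0.802 CPM in the HOMO libraries. No HOMO library fell to the level of a WT library, and HOMO1 was the lowest of them. The mean was 0.207 ± 0.0477 CPM in WT and 0.877 ± 0.297 CPM in HOMO (SD, n = 4 each), and the log2 fold change was 2.04 (SE 0.41, edgeR adjusted p = 0.0174). It was called in 7 of 7 fits that left out 1 library, since without HOMO2 it fell below the filter, and was not called with near-identical libraries summed (edgeR adjusted p = 0.313). Over the 17 alternatives that could be fitted, its adjusted p ranged from 0.000941 to 0.459. Of its exon bases, 8.90% are shared with Acad11 on the opposite strand, which had 29.0 ± 1.53 CPM in WT and 26.4 ± 0.788 CPM in HOMO (SD, n = 4 each).

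The promoter windows of both upregulated receptors are shown with the letters TATAAA in capitals, searched on both strands and present in 13.6% of all windows. Of the 55 windows of members, which belong to 46 symbols, 14 held these letters. They are the core of the TATA box, and whether they serve as one here was not tested. Neither window holds the κB motif.
Xcr1 promoter, chr9:123861980-123862279, minus strand: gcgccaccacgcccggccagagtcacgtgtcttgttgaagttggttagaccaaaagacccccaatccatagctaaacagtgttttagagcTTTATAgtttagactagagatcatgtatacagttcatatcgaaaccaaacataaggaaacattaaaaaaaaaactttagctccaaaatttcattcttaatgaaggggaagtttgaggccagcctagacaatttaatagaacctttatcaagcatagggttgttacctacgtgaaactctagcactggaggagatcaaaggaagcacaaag
Ackr4 promoter, chr9:104126594-104126893, minus strand: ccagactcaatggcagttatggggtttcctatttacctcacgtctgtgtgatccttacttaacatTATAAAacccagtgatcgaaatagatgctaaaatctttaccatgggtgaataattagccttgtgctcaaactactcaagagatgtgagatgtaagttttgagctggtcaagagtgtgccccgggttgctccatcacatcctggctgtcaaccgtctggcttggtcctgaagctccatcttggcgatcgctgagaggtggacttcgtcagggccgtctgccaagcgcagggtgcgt
The letters begin 160 bases before the start in Xcr1, on the minus strand of the window, and 185 bases before it in Ackr4.

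**Figure D5:**
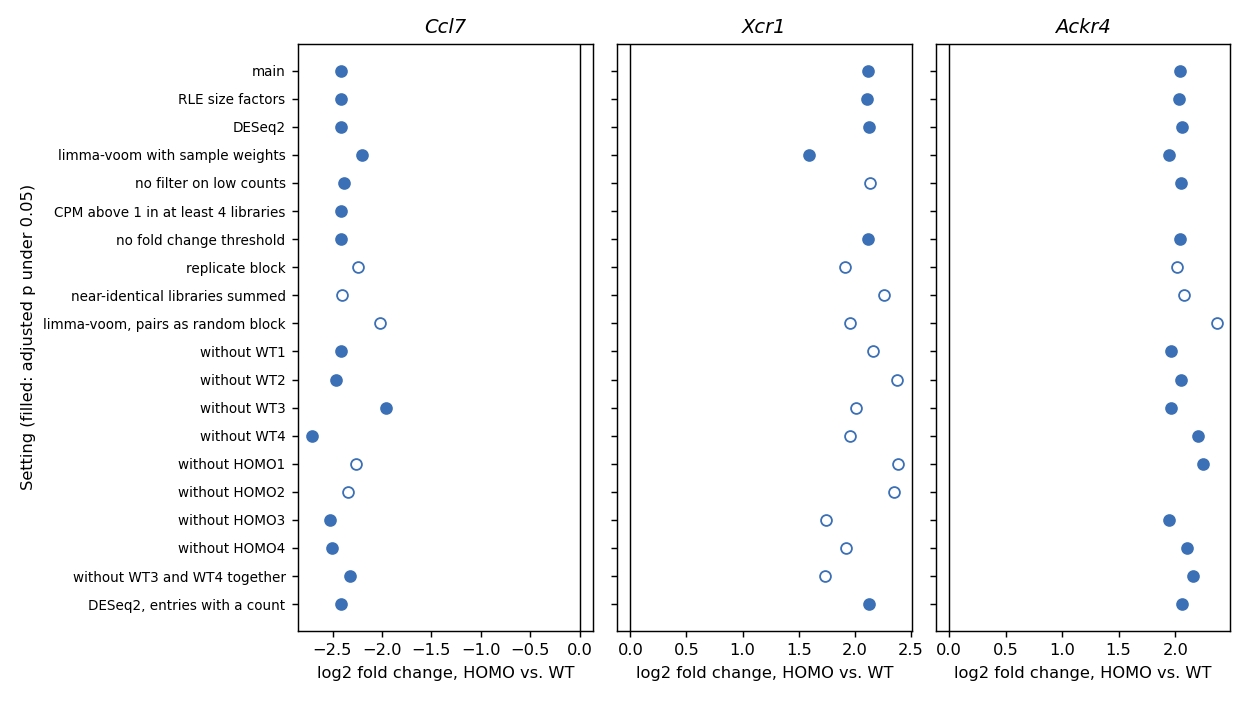
The log2 fold change of Ccl7, Xcr1 and Ackr4 is plotted under the test as described (main) and each alternative, filled where the adjusted p is under 0.05, with no point where the gene fell below the filter. Directions do not change, Ackr4 is filled in every fit without 1 library that could be made, Ccl7 is open without HOMO1 or HOMO2, and Xcr1 is open in all 8 of these fits.

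Ccr1, a receptor of Ccl3, Ccl5, Ccl6 and Ccl9 on monocytes and macrophages, had 0.450, 0.729, 14.9 and 1.94 CPM in WT1 to WT4 and 0.0446, 0.0303, 0.710 and 1.15 CPM in HOMO1 to HOMO4. WT3 and then WT4 were highest, as for the macrophage sums, and HOMO3 and HOMO4 overlapped with WT1 and WT2. Its log2 fold change was −3.25 (SE 1.38, edgeR adjusted p = 0.145), but −1.17 without WT3 and −0.37 without WT3 and WT4. DESeq2 called Ccr1 (adjusted p = 0.0368). Cx3cr1, the receptor of Cx3cl1, had 19 counts in WT4 and 0 to 4 elsewhere (two-sided exact permutation p = 0.400). Ccr2, the receptor of Ccl2 and Ccl7, had 3 counts in WT4 and 0 in all other libraries. The part of macrophages in the levels of Ccr1 was not tested.

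Cxcr4 fell below the filter with 0.169, 0.3003, 1.66 and 8.09 CPM in WT1 to WT4 and 0.0892, 0.0908, 0.304 and 0.802 CPM in HOMO1 to HOMO4. WT4 held most of its reads, and the genotypes overlapped (two-sided exact permutation p = 0.229). DESeq2 on entries with at least 1 count, a fit chosen after seeing the data, called Cxcr4 downregulated, beside 16.5% of all genes. Ackr3 (ENSMUSG00000044337, chr1:90203980-90216751, plus strand), which scavenges Cxcl12, was the leading receptor, with 7.44 CPM per kb in WT and 3.38 in HOMO. It had 17.9, 17.5, 14.2 and 49.9 CPM in WT1 to WT4 and 6.55, 5.81, 17.8 and 15.1 CPM in HOMO1 to HOMO4. WT4 stood apart above and HOMO1 and HOMO2 below, with the other 5 libraries between 14.2 and 17.9 CPM (log2 fold change −1.14, SE 0.51, edgeR adjusted p = 0.162).

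Ccrl2, which binds chemerin rather than signalling for chemokines, had 0.169, 0.429, 2.35 and 1.24 CPM in WT1 to WT4 and 1.11, 1.94, 1.01 and 1.75 CPM in HOMO1 to HOMO4. WT3 was the highest library of all, and WT1 and WT2 were the lowest (edgeR adjusted p = 0.661). Ccr10, the receptor of Ccl27 and Ccl28, had 1.01, 0.987, 0.344 and 1.28 CPM in WT1 to WT4 and 0.446, 1.45, 1.12 and 1.25 CPM in HOMO1 to HOMO4 (edgeR adjusted p = 0.781). Its span overlaps Cntnap1, which was higher in HOMO with 53.9 ± 15.5 CPM against 15.03 ± 5.66 CPM in WT (SD, n = 4 each). Neither receptor separated the genotypes.

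Cxcr6, the receptor of Cxcl16, had counts of 0, 3, 1 and 4 in WT1 to WT4 and of 5, 21, 23 and 10 in HOMO1 to HOMO4, without overlap (two-sided exact permutation p = 0.0286). Ackr1, a scavenger of many CC and CXC ligands, had counts of 0, 1, 1 and 2 in WT1 to WT4 and of 4, 14, 12 and 8 in HOMO1 to HOMO4, also without overlap (two-sided exact permutation p = 0.0286). Of the exon bases of Ackr1, 25.7% are shared with Cadm3 on the same strand, whose level was 0.339 ± 0.348 CPM in WT and 7.56 ± 1.77 CPM in HOMO (SD, n = 4 each). Its part in the Ackr1 counts was not tested. Ccr6 and Ccr8 had no count. The receptors Ccr3, Ccr4, Ccr7, Ccr9, Cxcr1, Cxcr2, Cxcr3, Cxcr5 and Ackr2 had at most 5 counts in any library.

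A list of 76 further genes held those that signal below the receptors, those that process, shed and present chemokines, and 12 related ligands and receptors named otherwise. Of the 76, 75 were in the table and 63 were tested. Of these, 1 was upregulated and 9 were downregulated, beside 5.94 and 6.18% of all genes, with a median log2 fold change of −0.41. With near-identical libraries summed 0 of them were called by edgeR, with an unadjusted p under 0.05 for 9, and with the pairs as a random block limma-voom called Ext1, Sdc3 and Grk5. The G proteins Gnai1 (log2 fold change −0.98), Gna11 (−0.77) and Gnb1 (−0.65) were downregulated among 12 tested, and of the 8 fits that left out 1 library they were called in 6, 3 and 2. Gnai1 is an inhibitory alpha subunit of the class through which chemokine receptors signal. Rgs5, a GTPase activator for such subunits known from pericytes, was called downregulated (log2 fold change −5.20) as 1 of 9 RGS genes tested. It passed the filter through its WT levels. WT4 held most of its level, with 3.32, 3.86, 0.689 and 36.1 CPM in WT1 to WT4, and without WT4 the log2 fold change was −3.12 and the call was lost. The Rgs5 call held in 1 of the 8 fits that left out 1 library. Grk5, a kinase that phosphorylates activated receptors, fell from 82.3 ± 11.8 to 30.8 ± 6.50 CPM (SD, n = 4 each, log2 fold change −1.42, edgeR adjusted p = 0.00416), and it was 1 of 6 receptor kinases and arrestins tested. Grk5 was called in all 8 fits that left out 1 library, though not with near-identical libraries summed, and without HOMO1 or without HOMO2 it was the only gene of the list that was. Of 17 effectors, Pik3r5, a regulatory subunit of PI3K gamma, was downregulated (log2 fold change −1.05), a call that held in 1 of these 8 fits.

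Among 15 tested genes of processing and presentation, the sheddase Adam17 was upregulated, from 47.7 ± 9.18 to 81.5 ± 19.9 CPM (SD, n = 4 each, log2 fold change 0.77, edgeR adjusted p = 0.0464), and it was called in 2 of the 8 fits that left out 1 library. The heparan sulfate proteoglycans Sdc2 (log2 fold change −0.85) and Sdc3 (−2.04), and Ext1 (−1.02), which builds heparan sulfate chains, were downregulated. These calls held in 2, 6 and 6 of the 8 fits. Such chains hold chemokines at the cell surface. Adam10 had a log2 fold change of 0.10 (SE 0.14, edgeR adjusted p = 0.673). Of the 4 tested genes related to chemokines but named otherwise, among them Mif and Cklf, 0 were called by edgeR, with an unadjusted p under 0.05 for 2. DESeq2, which called 19.2% of all genes, called Cklf.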

How the data were processed

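RNA of pFBs from female mice was sequenced after library preparation with the NEBNext Ultra kit, and 8 libraries, 4 WT and 4 HOMO, were used as labelled. The deposited values are raw counts by gene symbol, which the authors obtained with fastp for trimming, STAR for alignment (mm10) and featureCounts. Versions, and whether counting used strand, are not given in the sources used here. The deposited counts carry the label "outlierout", and the table held 0 columns of values that were not used.

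The tools were edgeR 4.0.16, DESeq2 1.42.0 and limma 3.58.1 under R 4.3.3. Libraries were scaled with TMM, filterByExpr by genotype left 14150 genes, and HOMO was compared with WT by edgeR's two-sided quasi-likelihood F test. SE was taken as the size of the log2 fold change over the root of F. CPM uses TMM-scaled library sizes, and log2 CPM a prior count of 2. Untested members with more than 3 counts in a library were compared by a two-sided exact permutation test on CPM over 70 assignments, and the counting interval of a ratio covers counting error only. Between 17236521 and 31987790 counts per library set the precision. Libraries of one genotype with a biological coefficient of variation under 10% were taken as near-identical. The script was tested on simulated data. Positions, exon lengths and overlaps came from GENCODE M21 (GRCm38). Figures were made with Python 3.11.15 and matplotlib 3.10.9.

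Named in full are members called, members with a mean of at least 1 CPM in a genotype and tested members whose genotypes do not overlap. Others were given by counts, and Ccl20, Cxcr6 and Ackr1 were named after their values were seen. A member that enters the counts is not reported here. Members and lists were chosen with earlier results of these data known. Alternatives were RLE scaling, DESeq2, limma-voom with sample weights, 2 other filters, no fold change threshold, the replicate number as a block, near-identical libraries summed or as a random block, and leaving out each library. Leaving out WT3 and WT4 together, and DESeq2 on entries with at least 1 count, were chosen after seeing the data. Without WT3 and WT4, the remaining WT libraries are near-identical, so p-values and calls of that fit do not rest on a spread between WT units.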

Additional observations from a re-analysis of the deposited data

How the results depend on the processing

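Of the DEG counts, that of the ligands was 1 of 17 as reported, 5 with DESeq2, 7 with limma-voom and sample weights, 3 of 29 without a filter on low counts, 0 of 21 with near-identical libraries summed, 5 without WT3 and WT4, and 8 of 29 with DESeq2 on entries with at least 1 count. It ranged from 0 (without HOMO1 or without HOMO2) to 3 (without WT4: Ccl7, Cx3cl1 and Ccl2) when 1 library was left out. That of the receptors was 2 of 6 as reported, 3 with DESeq2 and with limma-voom and sample weights, 1 of 21 without a filter, 0 of 3 with a filter of 1 CPM in at least 4 libraries, 0 with near-identical libraries summed or as a random block, and 5 of 21 with DESeq2 on entries with at least 1 count. It ranged from 0 (without HOMO2) to 1 (Ackr4) when 1 library was left out. The ligands called without a filter were Ccl7, Ccl20 and Ccl28. DESeq2 called the ligands Ccl2, Ccl7, Ccl8, Ccl9 and Cx3cl1. On entries with at least 1 count it called these ligands and Ccl12, Ccl20 and Ccl28. The receptors called there were Cxcr4, Xcr1, Ackr4, Cxcr6 and Ackr1. The pathway list went from 10 DEGs to 16 with DESeq2, 19 with limma-voom and sample weights, 6 without a filter, 0 with near-identical libraries summed and 3 with them as a random block, and ranged from 1 (without HOMO1 or without HOMO2) to 14 when 1 library was left out. Of all genes, DESeq2 called 19.2%, limma-voom with sample weights 25.3%, edgeR without a filter 5.28%, edgeR without WT3 and WT4 20.9% and DESeq2 on entries with at least 1 count 16.5%, against 12.1% as reported. With the replicate number as a block, 1 ligand (Ccl8 in place of Ccl7), 0 receptors and 10 list genes, of which 3 were also called without it, were called, with 6.69% of all genes. The numbers did not pair the libraries, since the correlations of same-numbered deviations lay between −0.12 and 0.01, and no WT library correlated best with its own number. Directions turned for Cxcl14 (log2 fold change 1.17 with limma-voom and sample weights and 1.33 without WT3 and WT4), Ccl3 (0.60 without WT3 and WT4), Ccl25 (−0.011 without WT3, the lowest of −0.011 to 0.32 when 1 library was left out) and Ccr10 (−0.034 without WT3, the lowest of −0.034 to 0.49). The causes of these changes were not tested, other than that fewer libraries or genes enter some fits. The 4 untested members without overlap were so on the log2 scale too. Ackr4 rests on 3 to 7 counts in each WT library.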
